A study of Homo sapiens with 9 samples.

Results

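The genes described here are 41 genes of mitosis, measured in NT2 cells, an established human embryonal carcinoma line that turns towards neural progenitors in retinoic acid. They were found as the array probes that carry 1 of 42 listed gene names: 41 of the names had at least 1 probe, and CDC2, the older name of CDK1, had none. The 41 genes were read by 51 of the 42405 different probes, out of 34623 different gene names on the array. All cultures received 10 μM retinoic acid for 4 days (96 h). The control cultures received nothing else, the paraoxon cultures 1 μM paraoxon and the mipafox cultures 5 μM mipafox, and 3 single-colour arrays were hybridised per treatment, 9 in all. Both compounds are organophosphorus inhibitors of esterases; paraoxon is known as a strong inhibitor of acetylcholinesterase, mipafox as an inhibitor of neuropathy target esterase. The replicates, lettered A, B and C, are called biological in the series description and technical in the methods of the study, so the p-values measure only the spread between these arrays.

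Entry into mitosis is switched on when CDK1, bound to B-type cyclins, is freed of inhibitory phosphates by CDC25 phosphatases. Polo and aurora kinases then build the spindle, the spindle checkpoint holds the anaphase-promoting complex until every kinetochore is attached, and separase afterwards opens the cohesin ring that joins sister chromatids. Most of these genes are transcribed together in G2 and mitosis, through FOXM1, B-MYB and the MuvB complex, and their RNA is scarce in cells that have left the cycle, as neurons do. In RNA from whole cultures, fewer dividing cells and less RNA per dividing cell cannot be told apart.

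Sequences are shown for the probes on which the results turn, as the array files give them, 5′ to 3′, with coordinates of build hg19; an exon annotation of that build was not used here. For MKI67, whose product Ki-67 coats mitotic chromosomes, these are the 2 of its 3 probes that were lower on all 6 exposed arrays. They lie on the minus strand at chr10:129913193-129913252 and chr10:129907580-129907639:
MKI67 A_33_P3374205: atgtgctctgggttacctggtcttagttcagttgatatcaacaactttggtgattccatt
MKI67 A_33_P3374210: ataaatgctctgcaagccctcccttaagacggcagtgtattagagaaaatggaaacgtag
For PLK1, the polo kinase of mitotic entry, both probes are shown because their differences were unlike each other. The probe nearer the start of the gene lies on the plus strand at chr16:23692251-23692310, and the other, which is split over an intron, between 23700970 and 23701212:
PLK1 A_33_P3298387: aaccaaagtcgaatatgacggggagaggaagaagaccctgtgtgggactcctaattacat
PLK1 A_23_P118174: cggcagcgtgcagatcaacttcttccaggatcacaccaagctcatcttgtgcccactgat
For SGOL1 (shugoshin), which shields centromeric cohesin from removal, the brighter of 2 probes is shown, on the minus strand at chr3:20212615-20212674:
SGOL1 A_24_P225970: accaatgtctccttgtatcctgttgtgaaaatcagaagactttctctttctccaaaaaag
The G+C content of these 5 probes was 40%, 43.3%, 46.7%, 53.3% and 36.7%, in the order shown.

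The members also share sequence that their choice did not use. RefSeq promoters of build GRCh38.p14, from 250 bases before to 50 bases after a gene's start, were found for 35 of the 41 genes (SGOL1 under its present name SGO1; BIRC5, TPX2, FOXM1, TTK, BUB3 and AURKA were not in the table), 47 promoters in all. The letters CCAAT or, on the other strand, ATTGG, as bound by the factor NF-Y, were in 35 of the 47 promoters (74.5%), against 34.6% of 35116 promoters. TTTGAA or TTCAAA, the core of the element through which MuvB binds cell cycle genes, were in 28 (59.6%, against 15.2% of all), and the palindrome TTTAAA, another form of that core, in 12 (25.5%, against 12.2%). Promoters holding both CCAAT or ATTGG and TTTGAA or TTCAAA were 46.8% of the members' and 5.9% of all. The 250 bases before the start of 3 genes show this arrangement, with the first and the second kind of match in capitals. CCNB2 (cyclin B2, plus strand, chr15:59104896-59105145) holds 4 of the first kind and 1 of the second, PLK1 (plus strand, chr16:23678639-23678888) 1 of each, and MKI67 (minus strand, chr10:128126424-128126673) 2 of each, of which 1 pair overlaps by a single base:
CCNB2 promoter: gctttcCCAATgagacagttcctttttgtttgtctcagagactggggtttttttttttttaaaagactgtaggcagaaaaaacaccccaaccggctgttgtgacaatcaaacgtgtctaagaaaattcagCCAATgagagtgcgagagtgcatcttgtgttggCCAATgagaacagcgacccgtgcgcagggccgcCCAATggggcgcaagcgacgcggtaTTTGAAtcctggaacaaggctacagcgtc
PLK1 promoter: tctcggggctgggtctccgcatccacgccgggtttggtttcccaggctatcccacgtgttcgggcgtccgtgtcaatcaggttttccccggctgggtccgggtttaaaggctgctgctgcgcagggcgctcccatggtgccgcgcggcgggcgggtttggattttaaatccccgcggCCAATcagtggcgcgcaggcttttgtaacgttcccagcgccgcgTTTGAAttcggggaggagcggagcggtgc
MKI67 promoter: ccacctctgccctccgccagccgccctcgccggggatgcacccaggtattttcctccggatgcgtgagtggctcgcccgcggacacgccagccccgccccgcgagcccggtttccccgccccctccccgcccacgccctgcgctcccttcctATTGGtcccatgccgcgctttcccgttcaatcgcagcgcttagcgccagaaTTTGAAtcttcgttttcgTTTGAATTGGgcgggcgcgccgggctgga
These matches are letters in a window and were not tested as binding sites.

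Values below are log2 of the processed signal minus the array's own 75th percentile, so 0 is the level that 75% of all spots stay under, and a difference of 1 is a doubling. Each value belongs to its probe, and levels of different probes cannot be set against each other. A probe was tested if all arrays of at least 1 treatment showed it well above background. This held for 29134 probes, and for all 51 mitosis probes, each of which was well above background on 9 of 9 arrays, with 0 saturated spots. The share of probes well above background ran from 65.72% to 73.6% over the arrays, and the 75th percentile of the signal from 802.1 to 1590. The control arrays and mipafox A lay on slide 1, and the paraoxon arrays with mipafox B and C on slide 2, so paraoxon and control share no slide. The methods of the study describe slides of 4 arrays, which differs from this layout. The scanner headers also give another array design and scanner than those methods. All 10 probes of embryonal carcinoma genes (POU5F1, NANOG, SOX2 and others) and all 11 of retinoic acid response genes (CYP26A1, RARB, STRA6 and others) passed that flag on 9 of 9 arrays. Among lists of other cell types, 8 of 10 neuron, 4 of 7 fibroblast, 3 of 8 astrocyte and 3 of 8 blood cell probes did so, and both probes of GFAP, the defining astrocyte filament, and that of HBB, a globin, passed it on 0 arrays.

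**Figure D1:**
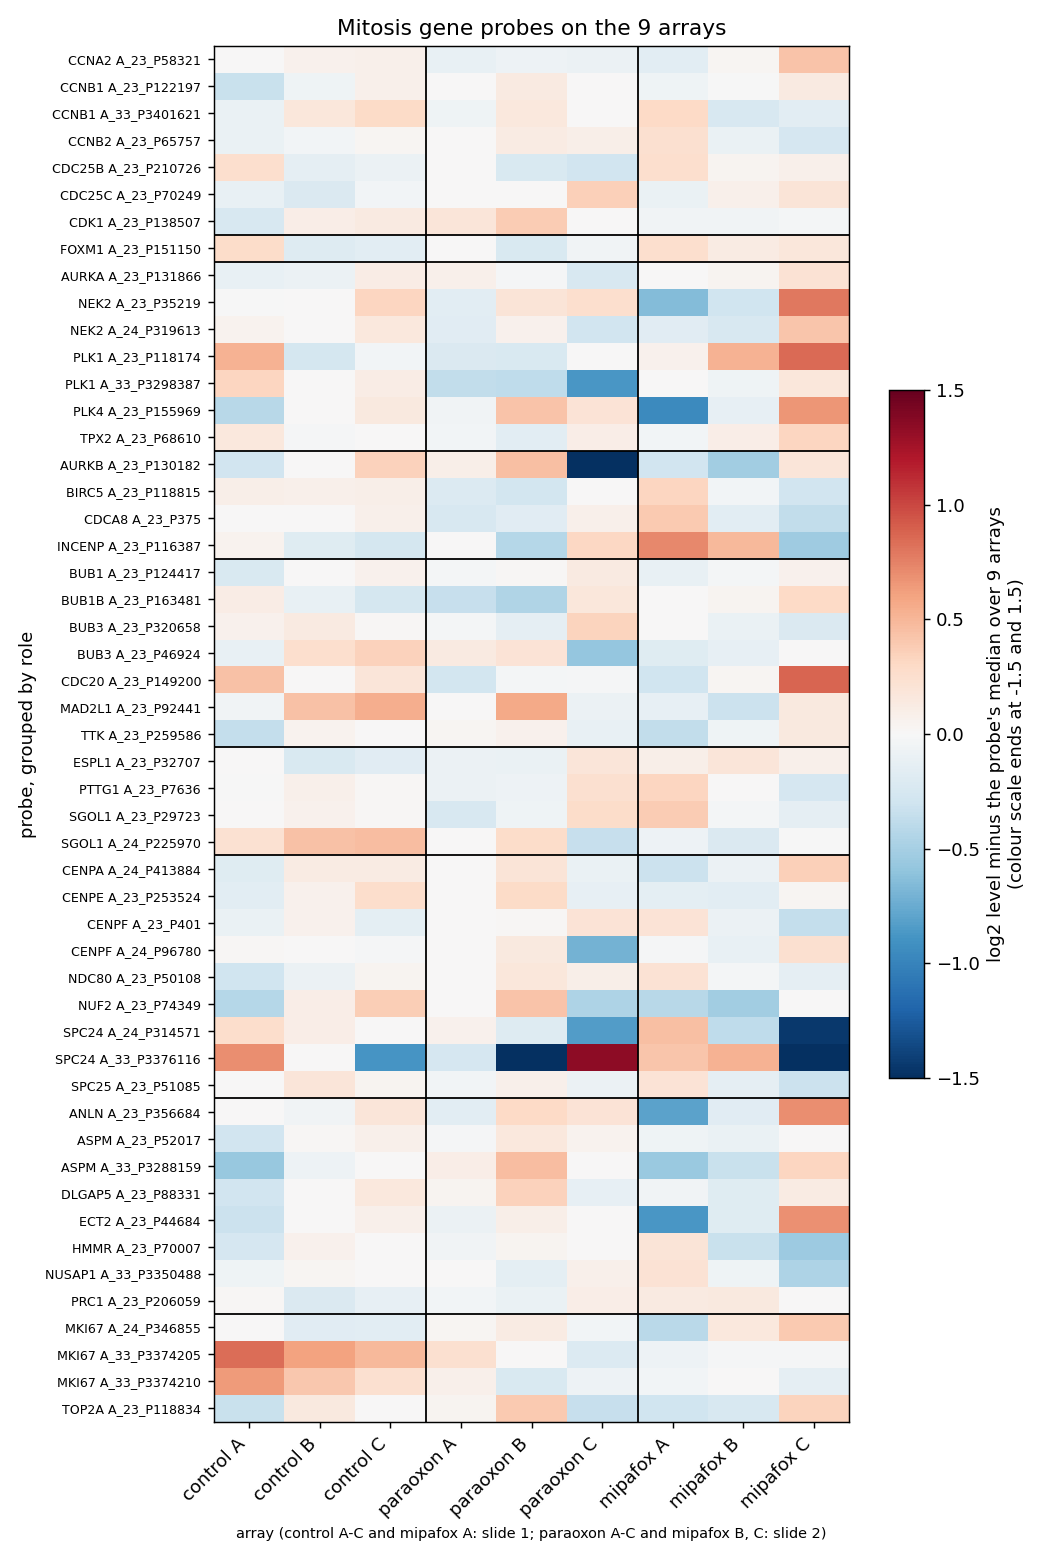
Level of each of the 51 mitosis probes (rows, grouped by role) on each of the 9 arrays (columns) as log2 difference from the probe's own median. Colours vary between arrays of 1 treatment as well as between treatments, AURKB is low on paraoxon C alone, and MKI67 A_33_P3374205 and A_33_P3374210 in the last block are higher on the 3 control arrays than on the 6 others.

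No mitosis gene passed the test with either compound, and the middle of the group stood close to the control. With paraoxon, 19 genes, each read by its brightest probe, were higher and 22 lower than control, with a median difference of -0.0077, beside 0.0117 over all tested probes. With mipafox, 18 were higher and 23 lower, with a median of -0.0085 beside 0.001. The median size of a difference, regardless of sign, was 0.128 over the 51 probes with either compound, against 0.187 (paraoxon) and 0.154 (mipafox) over all tested probes. No member differed by more than 1 in either comparison, and 48 of 51 probes with paraoxon (94.1%, beside 84.1% of all) and 49 with mipafox (96.1%, beside 90.8%) were within 0.5 of control.

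**Figure D2:**
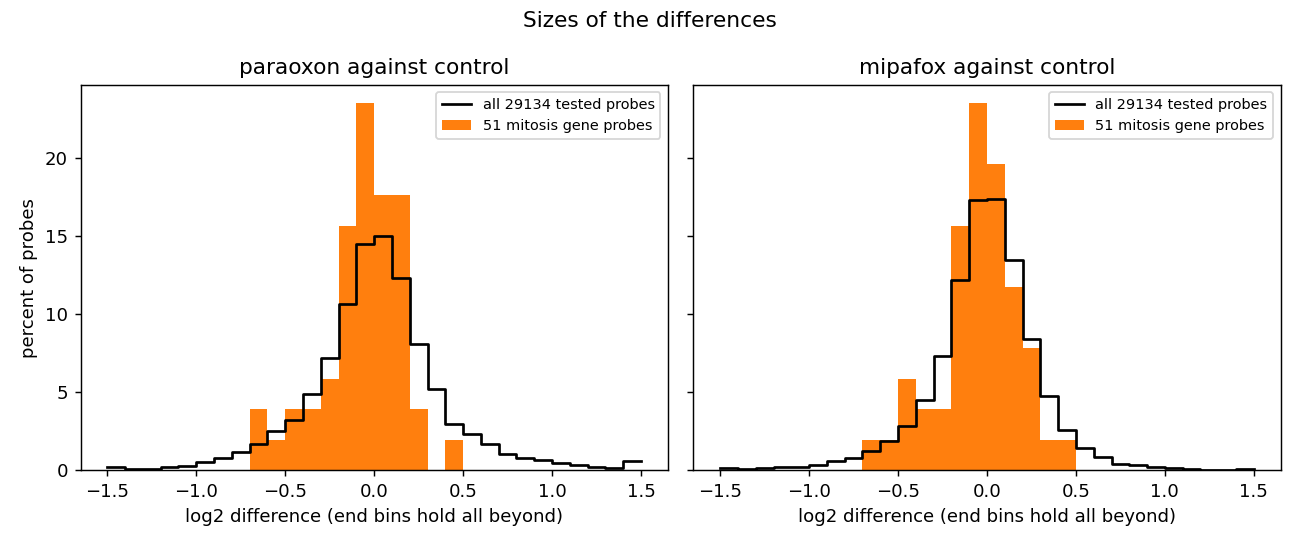
Distribution of log2 differences from control for the 51 mitosis probes (bars) and for all 29134 tested probes (line), as percent of probes per 0.1 of log2. Bars and line are both centred near 0, and no mitosis probe lies beyond -1 or 1.

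With limma and Benjamini-Hochberg adjustment over all tested probes, 0 of 51 member probes were called (adjusted p under 0.05 and a log2 difference beyond 1) in any comparison, where 0% of all probes were called. The smallest adjusted p of a member was 0.129 with paraoxon and 0.377 with mipafox. At an unadjusted limma p under 0.05, 0 members were higher and 3 lower with paraoxon (5.88% of the 51), where 7.31% of all tested probes were higher and 6.02% lower. With mipafox, 0 were higher and 3 lower (5.88%), against 2.96% and 4% of all. Probes whose 3 paraoxon arrays all lay above the 3 control arrays were 2 of 51 (CDC25C and 1 of the ASPM probes), against 12.4% of all. Those whose paraoxon arrays all lay below were 6 (CCNA2, BIRC5, CDC20, 1 PLK1 probe and 2 MKI67 probes), or 11.8%, against 11.1% of all. For mipafox, 1 probe (ESPL1) lay wholly above and 4 (2 of MKI67, 1 of SGOL1, 1 of BUB3) wholly below, against 5.33% and 6.46%. The members' shares of lower probes are thus near the background in both comparisons. Their shares of higher probes were below it. At the unadjusted p, 0 of 51 stood beside 7.31% with paraoxon and 2.96% with mipafox. For arrays wholly above control, 3.92% stood beside 12.4% with paraoxon and 1.96% beside 5.33% with mipafox. The reason for this was not tested.

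The 95% intervals show how closely the arrays fixed each difference, in a fit that leaves the slide out. For 46 of 51 probes (90.2%) the interval lay wholly between -1 and 1 in each comparison with control, which held for 77.46% of all tested probes with paraoxon and 82.17% with mipafox. The 5 probes whose paraoxon interval passed these limits were the 2 of SPC24, 1 of PLK1, and those of AURKB and PLK4. With mipafox they were the 2 of SPC24, 1 of MKI67, and those of AURKB and INCENP. For these probes a change of 1, up or down, lay inside the interval or at its edge. With slide as a term, a fit that ties paraoxon to control only through mipafox, 17 of 51 intervals with paraoxon (33.3%, beside 38.9% of all probes) and 35 with mipafox (68.6%, beside 65.6%) lay between -1 and 1. In that fit 21 members changed sign with paraoxon and 20 with mipafox (41.2% and 39.2%, beside 36.8% and 33.8% of all probes). CDC20 at -1.07 ± 0.41 (SE), ECT2 at -1.04 ± 0.41 and 1 SPC24 probe at 1.17 ± 1.60 passed 1 in size with paraoxon. That SPC24 probe was dim, with a mean level of -3.14, and its error was larger than its difference. The smallest limma adjusted p of a member in that fit was 0.613 with paraoxon and 0.789 with mipafox. From the control and paraoxon arrays alone, slide and paraoxon cannot be told apart.

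**Figure D3:**
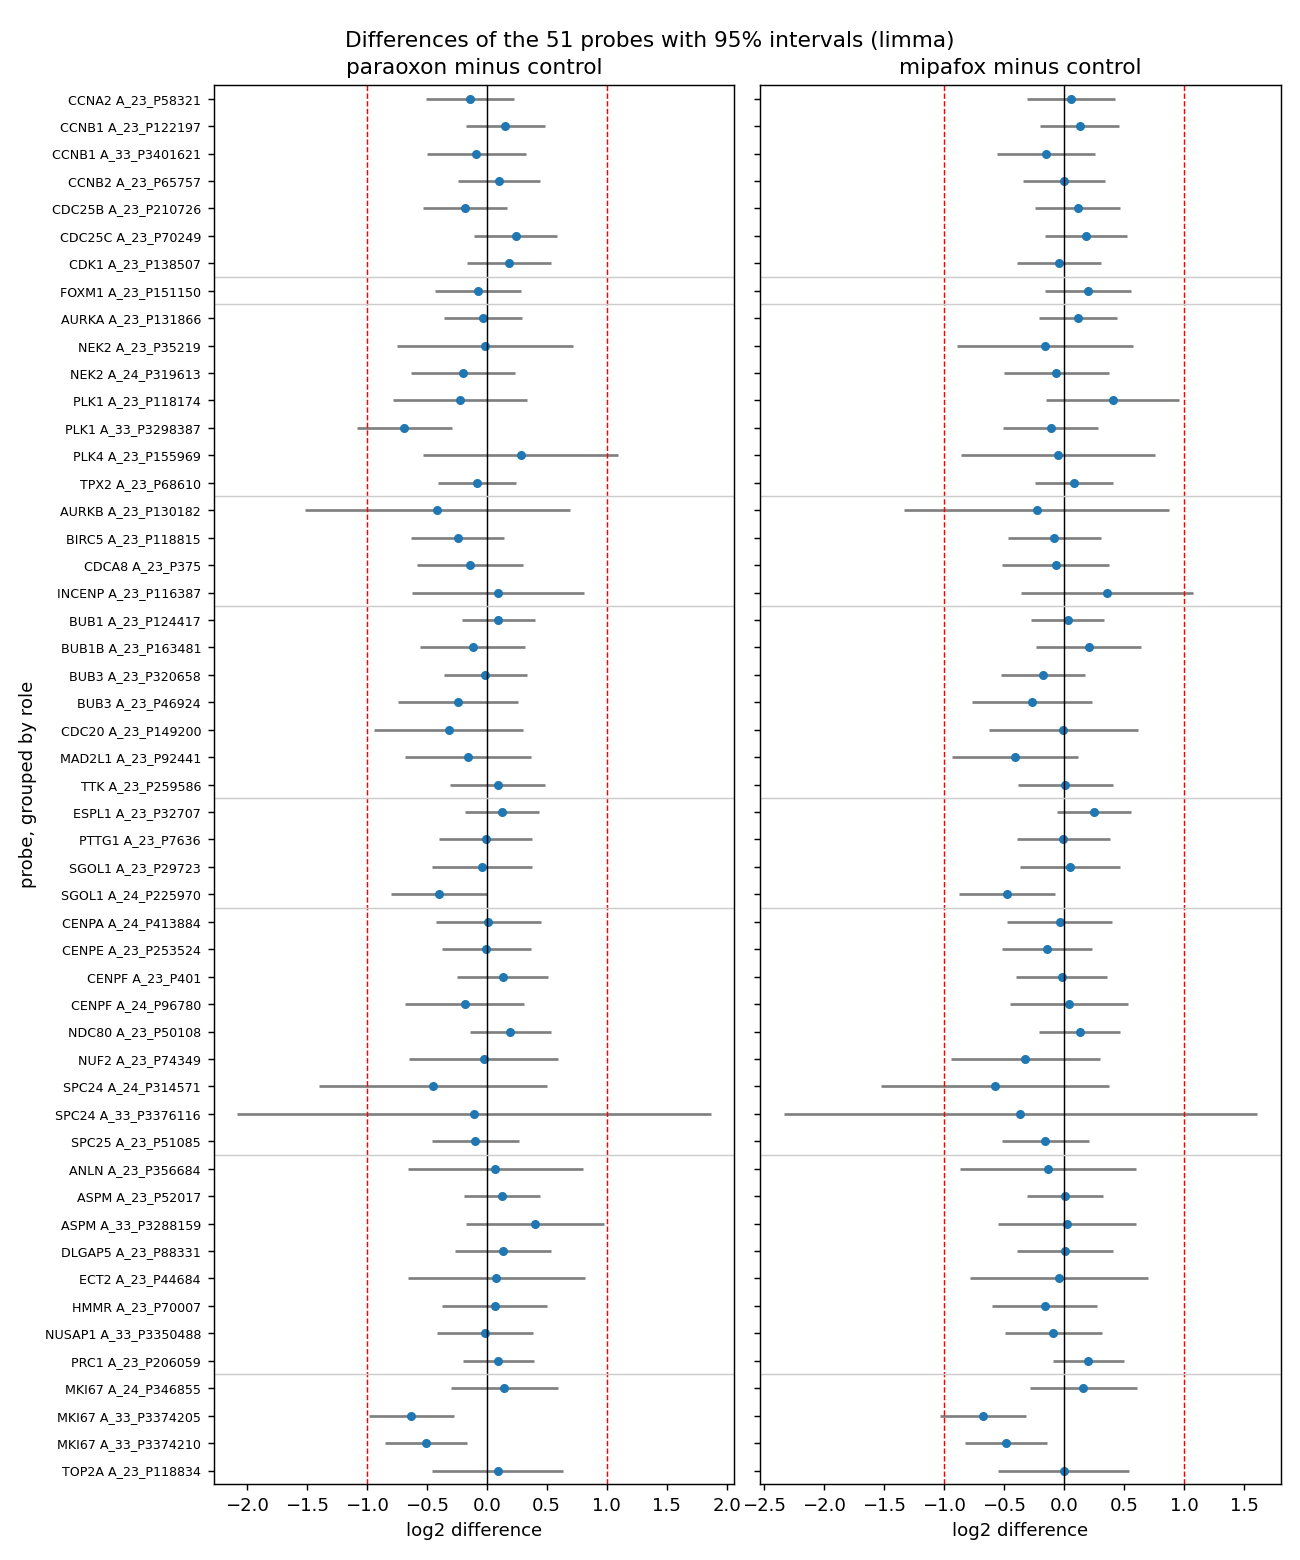
Log2 difference from control (points) with its 95% limma interval (lines) for the 51 probes, paraoxon on the left and mipafox on the right, dashed lines at -1 and 1. Most intervals include 0 and stay within the dashed lines, and the 2 SPC24 probes and AURKB have the widest.

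In the CDK1-cyclin switch, 6 genes on 7 probes, differences ran from -0.18 to 0.24 with paraoxon and from -0.15 to 0.18 with mipafox, and 0 probes had an unadjusted p under 0.05. CDK1, the kinase itself, read 2.16, 2.50 and 2.53 on the control arrays, 2.58, 2.78 and 2.40 with paraoxon and 2.34, 2.35 and 2.37 with mipafox. Its treatments overlapped, with differences of 0.19 ± 0.16 (SE, n = 3 per treatment) and -0.04 ± 0.16. CCNB1, cyclin B1, read 3.51, 3.79 and 3.92 in control, 3.85, 3.98 and 3.85 with paraoxon and 3.79, 3.84 and 3.98 with mipafox on its brighter probe. That probe differed by 0.15 with paraoxon and the other CCNB1 probe by -0.09, both with intervals that include 0. CCNB2 read 4.96, 5.01 and 5.09 in control, 5.05, 5.17 and 5.14 with paraoxon, and 5.29, 4.96 and 4.80 with mipafox. The mipafox arrays of CCNB2 lay on both sides of the control arrays, and the differences were 0.10 and 0.0006. CDC25C, a phosphatase that activates CDK1, read 0.20, 0.09 and 0.28 in control, 0.31, 0.32 and 0.67 with paraoxon and 0.22, 0.39 and 0.51 with mipafox. Its paraoxon arrays all lay above control, by 0.24 on average, with a limma adjusted p of 0.557. CCNA2 (cyclin A2) and CDC25B, the other members of this group, differed by at most 0.18 in size.

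FOXM1, the transcription factor that drives many of the other members, read 2.89, 2.42 and 2.46 in control, 2.61, 2.38 and 2.55 with paraoxon and 2.86, 2.73 and 2.78 with mipafox. Control A was above all mipafox arrays, and the differences were -0.07 and 0.20, with limma intervals from -0.43 to 0.28 and from -0.16 to 0.56.

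Among the polo, aurora and NEK kinases and their partners, 5 genes on 7 probes, the PLK1 probe nearer the start was lower with paraoxon. It read -0.97, -1.29 and -1.18 in control, -1.66, -1.68 and -2.17 with paraoxon and -1.29, -1.36 and -1.12 with mipafox. All paraoxon arrays lay below all others, by 0.69 from control (difference -0.69 ± 0.18, limma adjusted p = 0.134), while mipafox was at -0.11 ± 0.18. The other PLK1 probe read 1.91, 1.13 and 1.35 in control, 1.17, 1.16 and 1.39 with paraoxon and 1.46, 1.91 and 2.23 with mipafox. Its paraoxon arrays lay inside the control range, with differences of -0.22 (paraoxon) and 0.40 (mipafox), and adjusted p of 0.78 and 0.823 in limma. Set directly against each other, at doses that differ, paraoxon was below mipafox on both PLK1 probes, by -0.58 and -0.63, and these were the 2 members lower at an unadjusted p under 0.05, with 0 higher. Over all probes 1.15% were lower and 2.87% higher in that comparison, and the adjusted p of each member was 0.998 or more. On slide 2 alone, paraoxon minus the mean of mipafox B and C was -0.60 and -0.83 on the 2 probes, so this difference was as large within the slide. Against control, a fit with slide as a term, which reaches paraoxon only through mipafox, gave -0.74 and -0.84, both with a limma adjusted p of 0.613.

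AURKA, the kinase of spindle poles, read 2.54, 2.57 and 2.77 in control, 2.72, 2.64 and 2.41 with paraoxon and 2.65, 2.70 and 2.87 with mipafox. These overlapped throughout, with differences of -0.03 and 0.12, and its activator TPX2 differed by -0.08 with paraoxon and 0.08 with mipafox. PLK4, which starts centriole duplication, and NEK2, which separates centrosomes, had the widest spread in this group: on mipafox arrays PLK4 ran from -1.9995 to -0.3751 and the brighter NEK2 probe from 0.80 to 2.24. Against control they differed by 0.28 and -0.02 with paraoxon, and by -0.95 and -0.92 in the fit with slide as a term (limma adjusted p = 0.614 and 0.623).

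The chromosomal passenger complex corrects wrong attachments of chromosomes to the spindle. AURKB, its kinase, read 0.98, 1.27 and 1.61 in control, 1.35, 1.72 and -0.45 with paraoxon and 0.98, 0.74 and 1.45 with mipafox. Paraoxon C alone stood apart, the other paraoxon arrays being inside or above the control range, and the difference of -0.41 had a limma interval from -1.52 to 0.69. BIRC5 (survivin), a targeting subunit, read 4.45, 4.45 and 4.46 in control, 4.16, 4.10 and 4.37 with paraoxon and 4.70, 4.33 and 4.08 with mipafox. All paraoxon arrays lay below the narrow control range, by -0.24 on average (limma adjusted p = 0.618), and mipafox lay on both sides of it. CDCA8 (borealin) and INCENP, the scaffold, differed by -0.14 and 0.09 with paraoxon and by -0.07 and 0.36 with mipafox.

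In the spindle checkpoint and among activators of the anaphase-promoting complex, 6 genes on 7 probes, no probe had an unadjusted p under 0.05. BUB1, a checkpoint kinase at kinetochores, read 2.70, 2.92 and 2.99 in control, 2.90, 2.94 and 3.06 with paraoxon and 2.81, 2.90 and 2.99 with mipafox. Its arrays overlapped in all treatments, and the differences were 0.10 and 0.03. MAD2L1, which holds CDC20 inactive, read 2.86, 3.35 and 3.46 in control, 2.91, 3.48 and 2.82 with paraoxon and 2.79, 2.59 and 3.06 with mipafox. The mipafox difference of -0.41 was among the 4 members with the smallest p (limma adjusted p = 0.818), and its arrays overlapped those of control. CDC20, the activator itself, was lower on all paraoxon arrays, by -0.31, with an interval from -0.93 to 0.30 (-1.07 with slide as a term, limma adjusted p = 0.613), and on mipafox arrays ran from 2.07 to 3.24. BUB1B, BUB3 and TTK, the remaining checkpoint genes, differed by at most 0.26 in size.

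Of the genes that guard and cut cohesion, SGOL1 was lower on its brighter probe. It read 0.33, 0.55 and 0.57 in control, 0.11, 0.39 and -0.23 with paraoxon and 0.04, -0.11 and 0.10 with mipafox. All mipafox arrays lay below all control arrays (difference -0.475 ± 0.18, limma adjusted p = 0.626), and 1 paraoxon array lay inside the control range (-0.40 ± 0.18, adjusted p = 0.378). The second SGOL1 probe, nearer the end of the gene, differed by -0.04 and 0.05. ESPL1, separase, read 2.36, 2.13 and 2.20 in control, 2.27, 2.26 and 2.54 with paraoxon and 2.45, 2.55 and 2.44 with mipafox. It was the only member wholly above control with mipafox, by 0.25 (limma adjusted p = 0.817). PTTG1, securin, the inhibitor of separase, differed by -0.01 with each compound.

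The 7 centromere and kinetochore genes, on 9 probes, had 0 probes with an unadjusted p under 0.05 in either comparison with control. Their median difference was -0.0014 with paraoxon and -0.14 with mipafox. NDC80, NUF2, SPC24 and SPC25 form the complex that grips the microtubule, and of these SPC24 varied most, its brighter probe running from -0.44 to 1.46 over the mipafox arrays. CENPA, the centromeric histone, differed by 0.01 and -0.04. CENPE, a kinesin of the kinetochore, differed by -0.0014 and -0.14. The 2 CENPF probes differed by 0.13 and -0.18 with paraoxon and by -0.02 and 0.04 with mipafox, so their signs were opposite with both compounds.

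The 7 genes of the spindle and cytokinesis had a median difference of 0.08 with paraoxon and -0.04 with mipafox, and 0 probes passed an unadjusted p of 0.05. PRC1 and NUSAP1, which bundle microtubules, and DLGAP5 and HMMR, which act on spindle assembly, differed from control by between -0.16 and 0.20. ASPM, a spindle pole protein, differed by 0.13 and 0.40 on its probes with paraoxon. ECT2 and ANLN, which set up the contractile ring, differed by 0.08 and 0.07 with paraoxon, and by -0.04 and -0.14 with mipafox. With slide as a term, where mipafox A is the only exposed array beside the controls, their values turned to -1.04 and -0.998 with paraoxon (limma adjusted p = 0.613 for both) and were -0.79 and -0.85 with mipafox.

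MKI67 was the member with the smallest p in both comparisons with control. Its probe nearest the start, A_33_P3374205, read -0.15, -0.38 and -0.50 in control, -0.74, -0.98 and -1.19 with paraoxon and -1.056, -0.996 and -0.994 with mipafox. All 6 exposed arrays lay below all 3 control arrays, by -0.63 ± 0.16 with paraoxon (limma adjusted p = 0.129) and -0.675 ± 0.16 with mipafox (adjusted p = 0.377). The middle probe, A_33_P3374210, read 0.06, -0.18 and -0.35 in control, -0.50, -0.82 and -0.66 with paraoxon and -0.62, -0.58 and -0.72 with mipafox. It too was lower on all exposed arrays, by -0.505 ± 0.15 (limma adjusted p = 0.192) and -0.49 ± 0.15 (0.523). These 2 of 51 probes (3.92%) were the only members with all exposed arrays below control, against 3.97% of all probes, and both comparisons use the same control arrays. The third probe, A_24_P346855, nearest the end of the gene, read -1.13, -1.29 and -1.29 in control, -1.106, -1.003 and -1.166 with paraoxon and -1.53, -0.97 and -0.74 with mipafox. It was not lower, with differences of 0.15 and 0.16, so the probes of this gene disagreed in sign in the fit that leaves the slide out. Within slide 1, mipafox A minus the control mean was -0.72 and -0.47 on the 2 lower probes, as large as over all arrays. For paraoxon the fit with slide as a term gave -0.69 (limma adjusted p = 0.613) and -0.48 (0.637) on these probes. On the third probe that fit gave -0.53 with paraoxon and -0.29 with mipafox, so there all MKI67 probes were lower. TOP2A, the topoisomerase that untangles sister chromatids, read 2.19, 2.68 and 2.53 in control, 2.57, 2.92 and 2.18 with paraoxon and 2.23, 2.29 and 2.86 with mipafox. Its treatments overlapped, with differences of 0.09 and -0.0034.

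**Figure D4:**
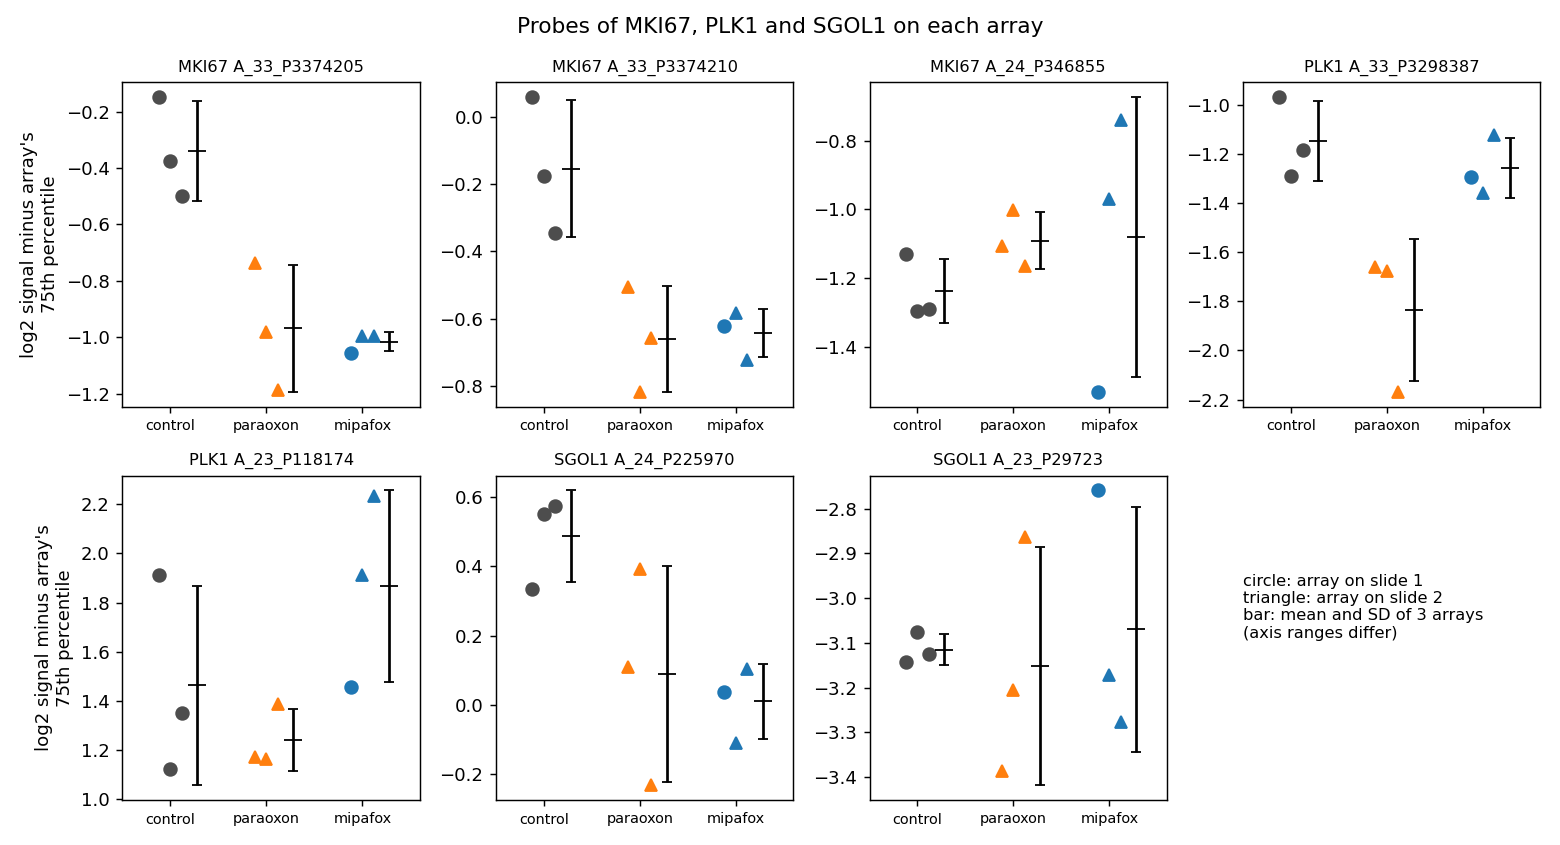
Log2 level on each array for the 7 probes of MKI67, PLK1 and SGOL1, with the mean and SD of 3 arrays; circles are arrays on slide 1 and triangles arrays on slide 2. The first 2 MKI67 probes are lower on all 6 exposed arrays and the third is not, while the first PLK1 probe is lower on the 3 paraoxon arrays only.

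The mipafox arrays differed from each other, both across and within slides. Over the 51 probes the median size of the difference was 0.195 between A and B, 0.463 between A and C and 0.231 between B and C, which share slide 2. The mean of mipafox B and C, on slide 2, minus mipafox A, on slide 1, had a median size of 0.294 over the 51 probes and 0.304 over all tested probes, both above the sizes of the treatment differences, though a value that rests on 1 array against 2 also has a larger error than means of 3. By that measure 8 member probes were more than 0.5 higher on slide 2 and 6 more than 0.5 lower. ECT2, ANLN, PLK4 and the brighter NEK2 probe were lowest of the 9 arrays on mipafox A and highest on mipafox C. Among the mipafox arrays HMMR, CDCA8 and PTTG1 ran the other way. The median SD between the 3 arrays of a treatment was 0.170 in control, 0.164 with paraoxon and 0.267 with mipafox for the members, beside 0.177, 0.211 and 0.264 over all tested probes. How much of this belongs to the slide and how much to the culture cannot be told apart with 1 mipafox array on slide 1.

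**Figure D5:**
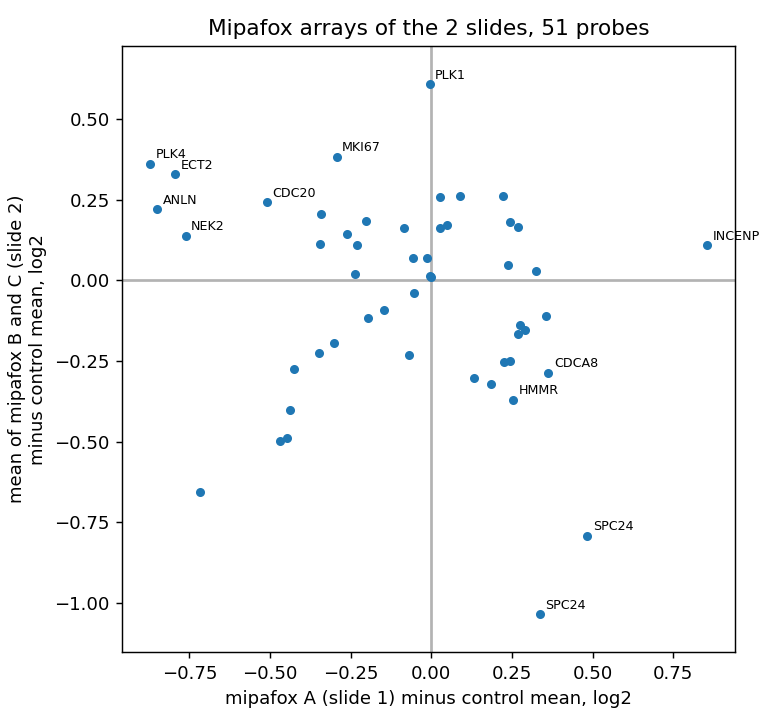
Each point is 1 of the 51 probes: horizontal axis, mipafox A (slide 1) minus the control mean; vertical axis, mean of mipafox B and C (slide 2) minus the control mean, both log2; genes are named where the 2 values differ by more than 0.6. ECT2, ANLN, PLK4 and the brighter NEK2 probe lie to the left, low on mipafox A, and both SPC24 probes lie at the bottom, low in the mean of B and C.

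The median of the signed correlations between members over the arrays was near 0. Pairs that moved together and pairs that moved oppositely offset each other in such a median, so it does not show that members varied separately. Over the 820 pairs of the 41 genes the median Pearson correlation across the 9 arrays was 0.018, as a description that mixes treatments and arrays, and over the pairs of 34 DNA replication genes it was 0.118. The difference with paraoxon correlated with the G+C content of the probe at r = -0.40 over the 51 member probes and -0.07 over all tested probes. Its part in the differences was not tested.

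Other genes of the cell cycle were counted in 8 further lists, 147 genes on 202 probes, of which 0 probes were called with either compound. At an unadjusted limma p under 0.05, 1 was higher and 19 lower with paraoxon (0.495% and 9.41%, beside 7.31% and 6.02% of all tested probes), and 5 were higher and 10 lower with mipafox (2.48% and 4.95%, beside 2.96% and 4%). Their median differences were -0.0078 and -0.013. The lists with most lower probes at that p with paraoxon were the other centromere and kinetochore genes, with 5 of 40 probes, and the MuvB, MYB and E2F regulators, with 5 of 33. CENPO, of the inner kinetochore, had the smallest p of the first with paraoxon (-0.50, limma adjusted p = 0.193), and CASC5, the checkpoint platform KNL1, with mipafox (-0.88, adjusted p = 0.449). Of the regulators, E2F3, an activator of S phase genes, led with paraoxon (-1.03, adjusted p = 0.159) and E2F7, a repressor of the same family, with mipafox (-1.30, adjusted p = 0.445). These were also the smallest p of all 8 lists. Both probes were dim, at -4.17 (E2F3) and -4.20 (E2F7) in control. With slide as a term the E2F3 probe gave -0.365 with paraoxon and the E2F7 probe -1.64 with mipafox.

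The machinery that the members act on or through is counted here at the same unadjusted limma p under 0.05, with paraoxon first, and the same shares of all probes (7.31% higher and 6.02% lower with paraoxon, 2.96% and 4% with mipafox) stand beside each count. The anaphase-promoting complex, which marks securin and cyclin B for destruction, had 0 higher and 1 lower of 21 probes with paraoxon, led by its subunit ANAPC2 (-0.53, limma adjusted p = 0.239), and 1 and 2 with mipafox, led by ANAPC1 (-0.60, 0.616). Cohesin and its regulators had 1 higher and 1 lower of 21 with paraoxon, led by the acetyltransferase ESCO2 (-0.45, 0.236), and 1 and 0 with mipafox, led by the release factor WAPAL (0.39, 0.696). Condensin, which compacts mitotic chromosomes, had 0 of 13 probes in either direction with both compounds, and its smallest p belonged to SMC2 (0.25, adjusted p = 0.487) and NCAPD3 (0.24, 0.875). The mitotic kinesins had 0 higher and 2 lower of 18 probes with each compound, led by KIF4A, a chromosome motor (-0.68, 0.191), and KIF20B, of cytokinesis (-0.54, 0.578). The other mitotic regulators had 0 higher and 2 lower of 39 with paraoxon and 1 and 1 with mipafox, led by TACC3, of spindle fibres (-0.46, 0.27), and DEPDC1 (-0.40, 0.641). Among G1 cyclins and CDK inhibitors, which act before S phase, 0 were higher and 3 of 18 lower with paraoxon, led by the kinase CDK2 (-0.45, 0.243), and 0 of 18 passed in either direction with mipafox, where CDKN1B, the inhibitor p27, had the smallest p (-0.83, 0.758). Of 41 probes of 34 DNA replication genes, counted apart from the 8 lists, 1 was higher and 2 lower with paraoxon and 0 and 1 with mipafox, where MCM7, of the replicative helicase, had the smallest p (-0.59, 0.705).

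Markers of cell state were read on the same arrays, and 0 of their probes were called. The log2 summed level of the embryonal carcinoma genes ran from 6.74 to 6.85 in control, 6.73 to 6.80 with paraoxon and 6.44 to 7.10 with mipafox. That of the neuron genes, of which 8 of 9 were tested, ran from 3.81 to 4.09, from 3.68 to 3.88 and from 3.98 to 4.05. At an unadjusted limma p under 0.05, 1 of 10 embryonal carcinoma probes was lower with paraoxon (6.02% of all) and 0 with mipafox. It was a POU5F1 probe (-0.49, limma adjusted p = 0.333, and -0.02 with slide as a term), and the other POU5F1 probe differed by -0.13. Of 9 neuron probes 0 passed with paraoxon and 1 was higher with mipafox (2.96% of all), RBFOX3 (0.40, limma adjusted p = 0.626). The summed level of 3 blood cell probes was low, from -3.35 to -3.18 in control and from -3.03 to -2.80 with paraoxon, led by 1 PTPRC probe (1.15 higher, limma adjusted p = 0.0764). That probe was dim, at -5.96 in control and -4.81 with paraoxon. The other PTPRC probes were well above background on at most 5 arrays and were not tested. Of the 11 retinoic acid probes 1 was higher and 1 lower at an unadjusted limma p under 0.05 with paraoxon, and 0 and 1 with mipafox, with medians of -0.0108 and 0.105. The lower one was HOXB1 (-0.84, limma adjusted p = 0.206, and -0.66, 0.669), and the higher one MEIS2 (0.365), named after its values were seen. The 3 astrocyte and 4 fibroblast probes tested had their smallest p at S100B (0.15, adjusted p = 0.787, and 0.16, 0.937) and LUM (-0.45, 0.549, and -0.50, 0.817), with 0 probes at an unadjusted p under 0.05. The part of any of these in the mitosis values was not tested.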

How the data were processed

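RNA of NT2 cultures was measured on 9 single-colour Agilent arrays. The authors deposited for each array the scanner's table, made with Agilent Feature Extraction 10.5.1.1 according to the submitters' processing notes, with the processed, background-subtracted intensity of every spot and flags for background, outliers and saturation, and a table of their own log2 values. The deposited intensity was used (58717 spots other than controls). It was divided by the array's 75th percentile and taken to log2, spots flagged as outliers were dropped, and spots of a probe were averaged. A probe counted as well above background on an array where at least 0.5 of its spots did.

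All 9 arrays were fitted in limma 3.58.1 (R 4.3.3; lmFit and eBayes, 1 mean per treatment), with Benjamini-Hochberg adjustment over 29134 probes; 95% intervals came from the same fit. Probes of a gene were kept apart, and each gene was represented by the brightest in medians. Precision is limited by how many arrays there are. The genes, lists and tests were chosen with earlier results of these data known. Every listed gene was accounted for; values on each array were given for CDK1, CCNB1, CCNB2, PLK1, AURKA, AURKB, BUB1, MKI67, TOP2A, FOXM1 and BIRC5, and for the 4 members with the smallest unadjusted p in each comparison with control (MKI67, PLK1, SGOL1 and CDC25C; MKI67, SGOL1, ESPL1 and MAD2L1). For 1 of the other lists the gene with the smallest p is not reported here. Alternatives changed the normalization, background correction, filter, spread model, blocks and arrays. The authors' log2 values served as 1 alternative; their correlation with the log2 values used here was 0.996 to 0.997 per array. Figures were drawn with matplotlib 3.10.9.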

Additional observations from a re-analysis of the deposited data

How the results depend on the processing

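The count of called mitosis probes was 0 in limma under every alternative run, in each of the 3 comparisons; in the main setting 3, 3 and 2 members had an unadjusted p under 0.05. Over all tested probes the calls were 0 in the main setting, and several alternatives gave some. With paraoxon 671 were called with array weights, 278 with only the 2 treatments compared, and 1 with slide as a block. At p under 0.05 without adjustment and a log2 difference beyond 1 there were 638. With mipafox the counts were 800 (array weights), 6 (slide as a block) and 246 (the unadjusted p), and between paraoxon and mipafox 74 at the unadjusted p. Leaving out 1 array gave 0 to 275 calls with paraoxon (275 without mipafox A, 77 without mipafox B, 1 without mipafox C) and 0 to 78 with mipafox (78 without mipafox A). The median difference of the mitosis genes ran from -0.0335 to 0.0631 with paraoxon and from -0.1023 to 0.0478 with mipafox when 1 array was left out, the extremes of 0.0631 and -0.1023 being without control C and without control A. With array weights it was -0.1022 for mipafox.

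Array weights alone brought members to a limma adjusted p under 0.05, always with differences under 1 in size. With paraoxon these were 4 probes: PLK1 A_33_P3298387 (-0.47), MKI67 A_33_P3374205 (-0.42) and A_33_P3374210 (-0.36), and SGOL1 A_24_P225970 (-0.42). With mipafox they were 9. Lower were MAD2L1 (-0.70), SGOL1 A_24_P225970 (-0.62), NUF2 (-0.61), MKI67 A_33_P3374205 (-0.61) and A_33_P3374210 (-0.39). Higher were PLK1 A_23_P118174 (0.65), INCENP (0.63), ESPL1 (0.37) and PRC1 (0.31). At an unadjusted limma p under 0.05 that fit had 0 members higher and 6 lower with paraoxon, beside 5328 and 3383 of 29134 probes. With mipafox it had 7 and 9, beside 6785 and 4047. The weights ran from 0.285 for mipafox C to 4.372 for control B. Why the weights change the calls was not tested. The unadjusted p of MKI67 A_33_P3374205 stayed under 0.05 with paraoxon in 20 of 20 alternatives, with differences from -0.74 to -0.42, and those of MKI67 A_33_P3374210 and PLK1 A_33_P3298387 in 19, the exception being slide as a block. With the replicate letter as a block 0 probes were called, members included, and the smallest adjusted p of a member was 0.167 with paraoxon. Deviations of arrays with the same letter correlated between -0.60 and 0.57, over 0.1 in 5 of 9 pairs, so the letters were not taken to pair the arrays. With slide as a block 21 of 51 members changed sign with paraoxon and 20 with mipafox, none of them under an unadjusted p of 0.05 in the main setting. At that limma p 6 and 3 members newly passed, and 2 no longer did in each comparison. In that fit 3 of 51 were higher and 4 lower with paraoxon, beside 4.16% and 3.86% of all probes. With mipafox 0 were higher and 4 lower, beside 1.87% and 3.61%. With 3 arrays per treatment, differences of the members had a median standard error of 0.178.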
